A study of Rattus norvegicus with 30 samples.

Results

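The comparison described here is how the cardiac response to isoproterenol differed between 72 h and 24 h after dosing. It was taken over all probe sets of the array as the isoproterenol effect at 72 h minus the isoproterenol effect at 24 h, an effect being the mean of the isoproterenol arrays minus the mean of the vehicle arrays of the same time. Of the 30 arrays of the series, 15 enter it, 7 taken at 24 h and 8 taken at 72 h. The samples are heart RNA of male rats of the outbred Wistar Han stock, Crl:Wi(Han), given vehicle or 1 dose of isoproterenol, a catecholamine analogue that stimulates beta-adrenergic receptors. No genetic alteration is labelled, and the age of the rats is not stated, nor is the chamber of the heart taken. At 24 h there were 3 vehicle and 4 isoproterenol arrays, and at 72 h there were 3 vehicle and 5 isoproterenol arrays. The dose is labelled as 0.5 with the unit mg/kg/ml, while the design text gives it in mg, so the dose by body weight is not settled. The design text also gives an earlier last sampling than the 72 h of the labels, which are followed. Each array is titled as a biological replicate. Whether every array came from its own animal is not stated, so the p-values measure a spread between samples. That spread was estimated over all 30 arrays of the series, not over these 15 alone.

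Overstimulation of beta-adrenergic receptors kills scattered cardiomyocytes in the rat heart. Monocytes and macrophages enter and clear the dead cells, and the surviving muscle switches on growth and stress genes. Fibroblasts then multiply, deposit collagen and other matrix proteins in place of the lost muscle, and mature into the cells of a scar.

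Levels are given as log2(intensity + 16) after quantile normalization, which forces the values of all arrays into one common distribution, so that 1 unit is a 2-fold step for bright probe sets and understates the change of dim ones. A gene is represented by the probe set with the highest mean that names it alone, and its SE and adjusted p come from a limma fit of 8 group means over all 30 arrays, adjusted by the Benjamini-Hochberg method over 24292 probe sets. A gene passed the test when its adjusted p was below 0.05. In this bulk tissue, fewer cells of a type and less RNA per cell cannot be told apart.

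The libraries resembled heart. The 19 measured cardiomyocyte sarcomere genes summed to intensities between 124100 and 150000 on all 15 arrays, and Myh6, the main adult myosin heavy chain of the rat ventricle, lay between 13.19 and 13.48. Atrial markers summed to 628.2 to 4252 in vehicle arrays and to 4810 to 10410 in isoproterenol arrays, and their list includes Nppa, which is also a stress gene of the ventricle. The mean log2 level of its 4 measured genes varied within groups. It was 6.37 to 9.78 in vehicle and 7.55 to 8.32 in isoproterenol at 24 h, and 6.41 to 8.45 and 7.17 to 9.64 at 72 h. Whether the arrays differed in their share of atrial tissue was not tested. Array medians of the deposited intensity ranged from 22.5 to 70.3, with the isoproterenol arrays of 24 h at 35.2 to 70.3. Probes for the 3' end of beta-actin exceeded those for its 5' end by 1.69 ± 0.23 (SD, n = 3) and 1.06 ± 0.21 (SD, n = 4) in the vehicle and isoproterenol groups of 24 h, and by 1.35 ± 0.56 (SD, n = 3) and 1.35 ± 0.22 (SD, n = 5) in those of 72 h. The running number in the array names separates the treatments, so any effect of array order cannot be told apart from treatment.

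A few arrays stood apart and bear on the results below. The isoproterenol array of replicate 1 at 72 h carried the weakest response of its group, replicate 3 of isoproterenol at 24 h the weakest of its own, and replicate 2 of vehicle at 72 h had the largest actin 3' excess, 1.99 against 0.97 and 1.09 in the other vehicle arrays of that time. All 15 arrays were kept. Counts of probe sets or list members past the test of the difference were set against fits without each of these 3. Where such a count moved by more than 1.5 times, or from 0, the other count stands beside it. Counts at 24 h or 72 h alone are given with all 15 arrays, and some moved as far. Without replicate 3 of isoproterenol at 24 h, ribosome biogenesis genes higher at 24 h went from 12 to 19. Without replicate 1 of isoproterenol at 72 h, endoplasmic reticulum genes higher at 72 h went from 6 to 10.

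Counts of calls at each time and for the difference between the times come from tests of unequal precision, since the SE of the difference exceeds that of either effect, as for Pltp, where it was 0.37 against 0.27 and 0.26. At 24 h, 2142 of 12451 genes passed the test (17.2% of all genes tested), 1247 higher (10%) and 895 lower (7.19%) than vehicle. At 72 h, 2735 genes passed (22%), 1650 higher (13.3%) and 1085 lower (8.71%). In probe sets, 3169 of 24292 passed at 24 h (13%), 1782 higher (7.34%) and 1387 lower (5.71%). At 72 h 4333 passed (17.8%), 2277 higher (9.37%) and 2056 lower (8.46%). The difference between the effects passed for 338 genes (2.71%): the effect was higher at 72 h for 229 (1.84%) and lower for 109 (0.875%). Counts of list members given below are to be read beside these shares of all genes. Among probe sets, 514 of 24292 passed (2.12%), 321 with a higher (1.32%) and 193 with a lower (0.795%) effect at 72 h. Without replicate 1 of isoproterenol at 72 h these counts were 603 and 279, without replicate 2 of vehicle at 72 h 614 and 496, and without replicate 3 of isoproterenol at 24 h 402 and 369. Leaving out other vehicle arrays lowered them, to 128 and 57 without replicate 3 of vehicle at 72 h, to 131 and 55 without replicate 1 of that group, and to 149 and 71 or 203 and 109 without replicate 2 or 3 of vehicle at 24 h. Without replicate 2 of isoproterenol at 24 h they were 211 and 95. The lower count was 116 without replicate 4 of that group and 119 without replicate 2 of isoproterenol at 72 h. In a fit of the 15 arrays alone, 90 and 39 probe sets passed. Of the 92 genes past the threshold that are named or belong to a gene list, 67 did not pass without normalization, 60 did not pass in the fit of the 15 arrays, 51 lost the call in at least 1 of the 15 fits that left out 1 array, and 14 passed under every alternative tried.

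Most of the 229 genes with a higher effect at 72 h passed only at the later time. Of them, 175 (76.4%) passed at 72 h and not at 24 h, 35 (15.3%) had been lower than vehicle at 24 h and no longer passed at 72 h, and 15 were lower at 24 h and higher at 72 h. Of the 109 genes with a lower effect at 72 h, 69 (63.3%) were raised at 24 h and did not pass at 72 h, 27 (24.8%) passed only at 72 h, where they were lower, and 7 went from higher to lower. The isoproterenol groups carried most of the change: from 24 h to 72 h the 229 genes changed by a median of 1.19 in isoproterenol and -0.28 in vehicle, and the 109 genes by -0.75 and 0.30. In 20 of the 229 and 21 of the 109 the change between the vehicle groups was the larger one.

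**Figure D1:**
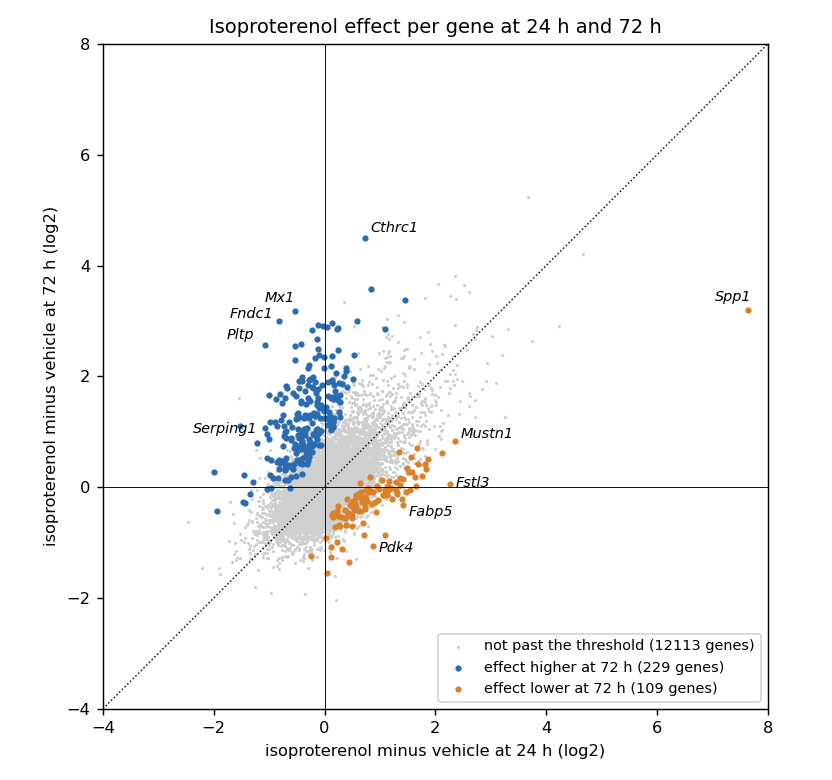
Isoproterenol effect on each of 12451 genes at 24 h (horizontal axis) and at 72 h (vertical axis), both as isoproterenol mean minus vehicle mean on the log2(intensity + 16) scale. Blue points are the 229 genes with a higher effect at 72 h, orange points the 109 with a lower effect, grey points all others, and the dotted line marks equal effects. Blue points lie above the dotted line and mostly at 24 h effects near or below 0, and Spp1 stands alone at the right with effects of 7.65 and 3.21.

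The gene whose response receded most was Spp1, which encodes osteopontin, a secreted phosphoprotein of macrophages in injured tissue. In vehicle it read 5.65, 4.26 and 4.62 at 24 h and 4.26, 4.92 and 4.85 at 72 h. In isoproterenol it read 12.65, 13.07, 11.46 and 12.78 at 24 h, and 4.98, 8.57, 9.30, 8.19 and 8.37 at 72 h. The treated arrays of 24 h lay far above every other array, treated and vehicle arrays of the same time did not overlap, and replicate 1 of 72 h lay just above the vehicle arrays of its time. Genes taken for the largest differences had to show no overlap at the time of the larger effect. Their separation at that time was thus fixed by the choice. The effect was 7.65 ± 0.57 at 24 h and 3.21 ± 0.55 at 72 h, a difference of -4.44 ± 0.79 (SE, limma adjusted p = 0.0021). The mean of both vehicle groups lay below an intensity of 23, the level asked of a tested probe set, so these effects understate the change.

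The genes Fstl3 and Fabp5 also receded. Fstl3, an inhibitor of activin and myostatin, read 9.37, 9.35, 7.58 and 8.90 in isoproterenol at 24 h against 6.38 to 6.74 in vehicle, and 6.68 to 7.35 against 6.69 to 7.46 at 72 h. Its effect went from 2.26 ± 0.27 to 0.06 ± 0.26, a difference of -2.20 ± 0.38 (limma adjusted p = 0.00148). Fabp5, a fatty acid carrier abundant in macrophages and endothelium, read 10.56 to 11.75 against 9.45 to 9.93 at 24 h and 9.4 to 9.78 against 9.79 to 10.11 at 72 h, so that all treated arrays were above all vehicle arrays at 24 h and below them at 72 h. Its difference was -1.75 ± 0.26 (adjusted p = 0.000351), and its effect at 72 h alone, -0.33 ± 0.18, did not pass. Neither gene's difference passed without normalization (adjusted p = 0.0637 for Fstl3 and 0.267 for Fabp5).

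About as many ribosome biogenesis genes were raised as not at 24 h, and nearly none at 72 h. These genes make and process ribosomal RNA in the nucleolus. At 24 h, 12 of 25 measured members were higher than vehicle and none lower, with a median effect of 0.61 against -0.01 over all genes. At 72 h 1 member was higher and the median was 0.04. The difference passed for 5 members, all lower at 72 h: Fbl, Pno1, Nop16, Bop1 and Ddx21, with a median over the list of -0.47 against 0.01 over all genes. Fbl, the methyltransferase fibrillarin that modifies ribosomal RNA, read 10.13, 10.43, 8.93 and 10.11 in isoproterenol at 24 h against 8.04 to 8.38 in vehicle. At 72 h it read 8.56 to 9.07 against 8.22 to 8.44, still above every vehicle array but by 0.41 ± 0.20 in place of 1.68 ± 0.21 (difference -1.27 ± 0.29, limma adjusted p = 0.0163).

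Pno1, which helps cut the precursor of the small subunit, had an effect of 0.90 ± 0.16 at 24 h and -0.28 ± 0.16 at 72 h (difference -1.18 ± 0.23, limma adjusted p = 0.00449). Nop16, a factor of the large subunit, went from 1.15 ± 0.17 to 0.02 ± 0.16 (-1.13 ± 0.23, adjusted p = 0.00814). The call of Fbl was lost without replicate 2 of vehicle at 24 h (adjusted p = 0.0601) or replicate 1 of vehicle at 72 h (0.0622). No member of the list passed without normalization, with arrays centred on their medians or in the fit of the 15 arrays, 10 passed without replicate 3 of isoproterenol at 24 h, and 2 to 10 passed over the 15 fits that left out 1 array. Bop1 and Ddx21 lost their calls in 11 and 10 of those fits. Ifrd1, a transcriptional regulator, and Uck2, a kinase that salvages uridine, also passed only at 24 h, with effects of 1.39 ± 0.25 and 1.54 ± 0.24 at 24 h and of -0.21 ± 0.24 and -0.06 ± 0.23 at 72 h. Ifrd1 lost the call of its difference (limma adjusted p = 0.00944) without replicate 1 of vehicle at 72 h (0.0517).

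Of 30 measured genes of DNA replication and S phase, 19 were higher at 24 h and 7 at 72 h, and the median effect went from 0.84 to 0.39. Over all genes, 10% were higher at 24 h and 13.3% at 72 h. The difference passed for 2 members of the list, both lower, while 0.875% of all genes had a lower one. They were Cdt1, which licenses replication origins, and Mcm5, a subunit of the replicative helicase. Cdt1 read 7.77, 7.76, 6.92 and 7.84 in isoproterenol at 24 h against 5.95 to 6.17 in vehicle, and 6.08 to 6.64 against 5.78 to 6.18 at 72 h, where the groups overlapped (difference -1.25 ± 0.29, limma adjusted p = 0.0163). Its call was lost without replicate 3 of vehicle at 72 h (0.0545), and that of Mcm5 (-1.06 ± 0.25, adjusted p = 0.0199) in 4 of the 15 fits that left out 1 array (highest 0.0773, without the same array). Of 32 measured genes of G2 and mitosis, 11 were higher at 24 h and 18 at 72 h, with medians of 0.69 and 0.86, and no member's difference passed by limma, with 2 at an unadjusted p below 0.05 and 1 that passed without replicate 1 of isoproterenol at 72 h. Over the S phase list, 0 to 7 members had a lower difference in the fits that left out 1 array, 7 without replicate 3 of isoproterenol at 24 h and 4 without replicate 2 of vehicle at 72 h. Mki67, a marker of dividing cells, read 6.86 to 8.37 at 24 h and 6.34 to 8.59 at 72 h in isoproterenol, against 5.28 to 6.84 in vehicle. Its effects were 1.48 ± 0.39 and 1.87 ± 0.37 (difference 0.39 ± 0.54, adjusted p = 0.818).

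Of 20 measured hypertrophy and fetal genes, 14 were higher at 24 h and 12 at 72 h, with medians of 1.01 and 0.56, and the difference passed for Fhl1 and Flnc, both of which were still higher than vehicle at 72 h. Flnc, the muscle filamin, read 11.77, 11.82, 10.91 and 11.74 against 9.86 to 10.14 at 24 h and 10.16 to 10.99 against 9.77 to 9.90 at 72 h, so that treated and vehicle arrays did not overlap at either time. Csrp3, the muscle LIM protein, had effects of 0.81 ± 0.10 and 0.19 ± 0.09 (difference -0.62 ± 0.14, limma adjusted p = 0.0124, and 0.31 with arrays centred on their medians). Mustn1, a small protein of growing and regenerating muscle, went from 2.35 ± 0.27 to 0.83 ± 0.26 (-1.52 ± 0.37, adjusted p = 0.0256). Nppa, the atrial natriuretic peptide, kept effects of 2.75 ± 0.51 and 2.90 ± 0.49, and Myh7, the slow myosin chain of the fetal rat heart, had 0.60 ± 0.30 and 1.67 ± 0.29 (adjusted p of the difference 0.957 and 0.21).

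The calls of Fhl1 (adjusted p = 0.0416), Flnc (0.0344) and the small heat shock gene Hspb1 (0.0388) were lost in 11, 10 and 11 of the 15 fits that left out 1 array, and that of Mustn1 in 4 of them, the highest adjusted p being 0.106 without replicate 2 of vehicle at 24 h. The call of Csrp3 was lost without replicate 1 of vehicle at 72 h (0.0629). Of 17 measured cytosolic heat shock genes, Hspb1 and Hspe1, the latter a mitochondrial cochaperone, had a lower effect at 72 h, and Hspe1 lost its call in 8 of those fits. Of that list 4 members had a lower effect without replicate 3 of isoproterenol at 24 h or without replicate 2 of vehicle at 72 h, and 3 without replicate 1 of isoproterenol at 72 h. Of the hypertrophy genes, 4 had a lower effect at 72 h without replicate 3 of isoproterenol at 24 h and with array weights, and without replicate 2 of vehicle at 72 h 1 had a lower and 1 a higher effect. No hypertrophy gene passed without normalization, with arrays centred on their medians or scaled to a trimmed mean, in the fit of the 15 arrays or with replicate numbers as a block. The transcription factor gene Cebpb, induced in stressed tissue, went from 1.47 ± 0.25 to -0.09 ± 0.24 (-1.56 ± 0.35, limma adjusted p = 0.0137). It lost its call without replicate 2 of vehicle at 24 h (0.0521) or replicate 1 or 3 of vehicle at 72 h (0.0787 and 0.0619).

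**Figure D2:**
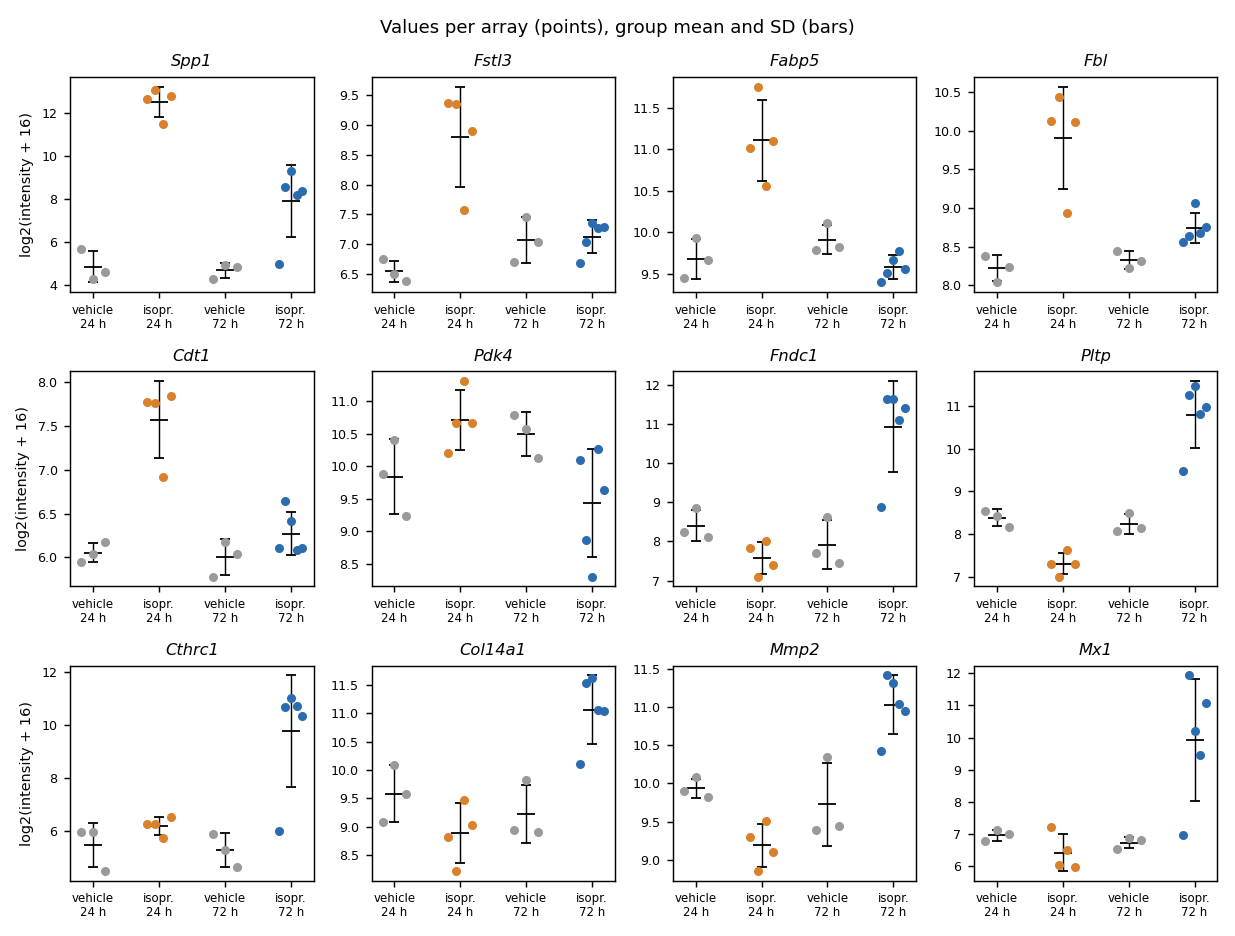
Values of 12 genes on each of the 15 arrays, as log2(intensity + 16) after normalization (vertical axes), by group (horizontal axes). Points are arrays, and bars give the group mean and SD. Spp1, Fstl3, Fabp5, Fbl and Cdt1 are highest in isoproterenol at 24 h, Pdk4 is lowest in isoproterenol at 72 h, and the rest are highest in isoproterenol at 72 h, where 1 array (replicate 1, the leftmost point) lies lowest in each of them.

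Macrophage markers were raised at both times. Of 23 measured monocyte and macrophage markers, 19 were higher at 24 h and 21 at 72 h, none was lower, and the median effects were 2.13 and 2.05. Their summed intensity was 2024 to 3353 and 5430 to 18890 in vehicle and isoproterenol at 24 h, and 1890 to 2242 and 3875 to 17490 at 72 h, the lowest treated values belonging to replicate 3 of 24 h and replicate 1 of 72 h. Cd68, a lysosomal protein of macrophages, read 7.76 to 10.22 at 24 h and 7.04 to 9.93 at 72 h against 5.67 to 6.55 in vehicle, and its effects of 2.74 ± 0.52 and 2.83 ± 0.49 differed by 0.09 ± 0.72 (limma adjusted p = 0.973). The median difference over the list changed sign with the setting, from 0.37 without replicate 1 of isoproterenol at 72 h, when 5 members had a higher difference, to -0.36 without replicate 3 of isoproterenol at 24 h, when 1 had a higher and 1 a lower difference.

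A few macrophage genes passed only at 72 h. Of 7 measured markers of tissue-resident macrophages, 3 were higher at 24 h and 3 at 72 h, and the difference passed for Stab1 alone, for 3 members without replicate 2 of vehicle at 72 h and for 2 without replicate 3 of isoproterenol at 24 h. Adgre1, a surface antigen of tissue macrophages, read 5.63 to 5.72 in isoproterenol at 24 h against 5.59 to 6.51 in vehicle, and 5.99, 8.09, 8.05, 7.15 and 7.75 at 72 h against 5.31 to 6.0, where only replicate 1 overlapped vehicle (difference 2.13 ± 0.43, limma adjusted p = 0.00679). Stab1, a scavenger receptor of resident macrophages and some endothelium, had effects of 0.03 ± 0.20 and 1.44 ± 0.19 (1.41 ± 0.27, adjusted p = 0.00449). Abca1, the cholesterol exporter, had effects of 0.11 ± 0.31 and 2.19 ± 0.30 (2.08 ± 0.44, adjusted p = 0.00868). None of these 3 passed without normalization (adjusted p = 0.0503, 0.783 and 0.217) or in the fit of the 15 arrays (0.0585, 0.0535 and 0.062). Of 23 lipid-handling and phagocytic macrophage genes, 15 were higher at 24 h and 14 at 72 h, where 2 were lower, and the difference passed for 1 in the higher and 2 in the lower direction. Those counts were 4 and 2 without replicate 1 of isoproterenol at 72 h and 1 and 3 without replicate 2 of vehicle at 72 h. Gpnmb and Lgals3 of that list stayed high, with effects of 4.67 ± 0.49 and 3.74 ± 0.41 at 24 h and 4.21 ± 0.47 and 2.63 ± 0.39 at 72 h (adjusted p of the difference 0.828 and 0.378).

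Ccl2, the main monocyte attractant, read 10.01, 10.88, 8.07 and 9.79 in isoproterenol at 24 h and 6.81 to 8.25 at 72 h against 5.70 to 6.88 in vehicle, and the difference, -1.98 ± 0.59, did not pass (limma adjusted p = 0.076). Of 30 measured cytokines and chemokines 7 were higher at 24 h and 10 at 72 h, and the difference passed for Ccl6 (2.08 ± 0.52, adjusted p = 0.0279), a chemokine of rodent macrophages, a call lost in 8 of the 15 fits that left out 1 array. When replicate 1 of isoproterenol at 72 h was left out 3 members had a higher effect at 72 h, without replicate 2 of vehicle at 72 h 2 did, and without replicate 3 of isoproterenol at 24 h 1 had a higher and 2 a lower effect. Neutrophil markers stayed near the lower end of the scale, with mean levels of 5.22 to 5.86 at 24 h and 5.00 to 5.64 at 72 h over both treatments, and no difference passed by limma among the 7 measured, with 3 at an unadjusted p below 0.05. Of 10 MHC class II genes, which present antigen, 6 were higher at 24 h and 9 at 72 h, and no difference passed by limma, with 4 at an unadjusted p below 0.05. Without replicate 1 of isoproterenol at 72 h 3 of their differences passed, all higher at 72 h, and 0 to 3 did over the fits that left out 1 array. Lymphocyte markers gave 1 call at 72 h, higher than vehicle, among 8 measured, while 13.3% of all genes were higher at that time. That count is near the share of all genes.

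The median effect over fibroblast markers went from below to above vehicle. Of 12 measured fibroblast markers, 4 were lower and none higher at 24 h, 8 were higher and none lower at 72 h, and the difference passed for 8, all higher at 72 h. Without replicate 1 of isoproterenol at 72 h, 4 were lower and 2 higher at 24 h, and 9 were higher and 1 lower at 72 h. The medians were -0.37, 1.01 and 1.06 for the 24 h effect, the 72 h effect and the difference. Their summed intensity was 17080 to 22050 and 11980 to 17700 in vehicle and isoproterenol at 24 h, and 15600 to 22640 and 24290 to 32780 at 72 h. Dpt, the matrix protein dermatopontin, read 11.33, 11.72 and 11.86 in vehicle and 11.06, 10.42, 11.52 and 11.16 in isoproterenol at 24 h, lower but with overlap (limma adjusted p = 0.0446), and 11.14 to 11.87 and 12.07 to 12.82 at 72 h, without overlap (difference 1.67 ± 0.28, limma adjusted p = 0.00104). Pi16, a marker of adventitial fibroblasts, read 7.58 to 7.79 against 7.90 to 8.67 at 24 h and 9.51 to 9.72 against 7.65 to 9.19 at 72 h, so that treated arrays were all below vehicle, an effect that did not pass, and then all above (1.75 ± 0.33, adjusted p = 0.00413). Dcn, decorin, was lower at 24 h (-0.68 ± 0.14, adjusted p = 0.00146) and did not pass at 72 h (0.36 ± 0.13, 0.0636). Pdgfra, the fibroblast receptor for platelet-derived growth factor, and Lum, lumican, lost their calls in 11 of the 15 fits that left out 1 array.

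The falls at 24 h depended on the scaling. Isoproterenol arrays of 24 h had median intensities of 35.2 to 70.3 against 29.7 to 49.3 in vehicle. Without normalization the median effect over all probe sets was 0.468 at 24 h and 0.356 at 72 h, a common shift that takes away falls and adds to rises. The median fibroblast effect at 24 h was then 0.28 in place of -0.37, still below that of all probe sets, with 1 member higher and none lower. Of the 50 genes over the whole array that were called lower at 24 h with a higher effect at 72 h, 47 kept a negative effect without normalization and 2 passed, against 31 with arrays centred on their medians and 47 with trimmed mean scaling. The difference of effects in fibroblast markers had a median of 0.98 without normalization, where no member passed, 3 passed in the fit of the 15 arrays, and 3 to 10 members passed over the 15 fits that left out 1 array.

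Of 19 measured collagen chains, 6 were higher and 1 lower at 24 h, 15 were higher at 72 h, and the difference passed for 6, all higher at 72 h (median difference 0.94). Over all genes, 10% were higher and 7.19% lower at 24 h, and 13.3% were higher at 72 h. The difference was higher for 1.84% of all genes. Col14a1, a collagen that links fibrils in mature connective tissue, read 9.09, 10.09 and 9.57 in vehicle and 8.83, 8.23, 9.48 and 9.04 in isoproterenol at 24 h. Its values at 72 h were 8.95, 9.82 and 8.92 in vehicle and 10.10, 11.52, 11.61, 11.05 and 11.03 in isoproterenol, above all vehicle arrays. The effect was -0.69 ± 0.27 at 24 h, which did not pass, and 1.83 ± 0.26 at 72 h, a difference of 2.52 ± 0.38 (limma adjusted p = 0.000445). Col8a2, a short-chain network collagen, and Col6a1, a chain of the microfibrillar collagen that surrounds cells, had differences of 3.06 ± 0.54 (adjusted p = 0.0021) and 1.55 ± 0.28 (adjusted p = 0.00251), both with 24 h effects near 0.

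The chains of fibrillar collagen type I lay above the vehicle arrays of the same time at 24 h without passing the test. Col1a1 read 10.52 to 10.88 in isoproterenol against 9.77 to 10.12 in vehicle at 24 h, an effect of 0.69 ± 0.35 that did not pass, and 11.01, 13.23, 13.16, 12.87 and 12.77 against 10.61 to 10.98 at 72 h, an effect of 1.82 ± 0.33. The difference of 1.13 ± 0.48 did not pass (limma adjusted p = 0.259), nor did that of Col1a2, 1.40 ± 0.45 (0.0993). Col3a1, whose product mixes with type I in young scars, read 11.92 to 12.70 against 12.06 to 12.50 at 24 h and 12.82 to 13.46 against 12.02 to 12.51 at 72 h (difference 0.94 ± 0.24, adjusted p = 0.0344), a call lost in 9 of the 15 fits that left out 1 array. Without replicate 1 of isoproterenol at 72 h, 12 collagen chains passed, 9 without replicate 2 of vehicle at 72 h, 4 to 12 did over those 15 fits, and 2 did without normalization or in the fit of the 15 arrays.

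Fndc1, a secreted protein with fibronectin domains, read 8.24, 8.85 and 8.11 in vehicle and 7.83, 7.10, 8.0 and 7.39 in isoproterenol at 24 h. Those of 72 h were 7.69, 8.62 and 7.44 against 8.88, 11.62, 11.62, 11.10 and 11.39. Treated arrays lay below all vehicle arrays at 24 h, where the effect of -0.82 ± 0.38 did not pass, and above them at 72 h, where it was 3.01 ± 0.37, an 8.03-fold rise (difference 3.83 ± 0.53, limma adjusted p = 0.000214). The rule for the largest differences asked for that separation at 72 h. Cthrc1, a secreted protein of activated fibroblasts, read 5.71 to 6.5 in isoproterenol at 24 h against 4.48 to 5.94. At 72 h it read 6.0, 10.67, 11.02, 10.72 and 10.34 against 4.61 to 5.88. Its difference was 3.77 ± 0.91 (adjusted p = 0.0231). The call was lost without replicate 1 or 2 of vehicle at 24 h (0.0593 and 0.078) or replicate 3 of vehicle at 72 h (0.0941), in the fit of the 15 arrays (0.128), with a pseudocount of 1 (0.0559) and with robust variances (0.0578). Replicate 1 of isoproterenol at 72 h lay far below the rest of its group and just above the vehicle arrays, whose mean at 72 h was below an intensity of 23.

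Of 10 small leucine-rich proteoglycans, which coat collagen fibrils, 3 were lower at 24 h, 5 were higher at 72 h, and 6 had a higher effect at 72 h, with a median difference of 1.08, and 3 to 7 passed over the fits that left out 1 array. Without normalization 2 passed, and 2 did in the fit of the 15 arrays. Bgn, biglycan, read 8.74 to 9.44 in isoproterenol at 24 h against 9.04 to 9.42, and 9.65, 11.99, 11.83, 11.49 and 11.35 at 72 h against 9.0 to 9.28 (difference 2.16 ± 0.41, limma adjusted p = 0.00385). That call was lost without normalization (limma adjusted p = 0.0946) and in the fit of the 15 arrays (0.0582). Omd, osteomodulin, was lower at 24 h (-1.28 ± 0.21) and did not pass at 72 h (0.09 ± 0.20), and its difference lost the call without replicate 3 of vehicle at 72 h (adjusted p = 0.0504). Of 20 matricellular and adhesive matrix genes, 9 were higher and 2 lower at 24 h, 15 were higher at 72 h, and the difference passed for Mfap4, Ccn3 and Ltbp1. It passed for 11 of them without replicate 1 of isoproterenol at 72 h and without replicate 2 of vehicle at 72 h for 6, with 2 to 11 over the fits that left out 1 array. Ltbp1, which stores latent TGF-beta in the matrix, lost its call in 3 of those fits. Mfap4, a microfibril protein, had effects of -0.72 ± 0.25 and 1.61 ± 0.24 (2.32 ± 0.34, adjusted p = 0.000413). Postn and Tnc, proteins of the early wound matrix, were high at both times, with effects of 3.68 ± 0.56 and 2.36 ± 0.67 at 24 h and of 5.23 ± 0.54 and 3.80 ± 0.64 at 72 h, and their differences did not pass (adjusted p = 0.372 and 0.514). Both vehicle means of Tnc were below an intensity of 23.

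Of 19 genes for collagen folding and crosslinking, 6 were higher at 24 h and 17 at 72 h, and the difference passed for Loxl1, a crosslinker of elastin (2.40 ± 0.58, limma adjusted p = 0.0223). Without replicate 1 of isoproterenol at 72 h 9 of them passed, 2 without replicate 2 of vehicle at 72 h or replicate 3 of isoproterenol at 24 h, and the call of Loxl1 was lost without replicate 1 or 2 of vehicle at 24 h (0.0504 and 0.0521) or replicate 1 or 3 of vehicle at 72 h (0.0702 and 0.0926). Mmp2, the gelatinase of fibroblasts, read 9.90, 10.08 and 9.82 in vehicle and 9.30, 8.86, 9.51 and 9.10 in isoproterenol at 24 h. Its values at 72 h were 9.39, 10.34 and 9.44 against 10.43, 11.41, 11.31, 11.04 and 10.94. Its treated arrays were all below vehicle at 24 h (-0.74 ± 0.20, adjusted p = 0.0109) and all above at 72 h (1.30 ± 0.19, 1.85e-05), a difference of 2.04 ± 0.27 (0.000118). When the arrays were not normalized its 24 h effect was -0.14 and did not pass, nor did its difference (limma adjusted p = 0.0637). Mmp14 and Adamts5, proteases of collagen and of proteoglycans, also had a higher effect at 72 h, calls lost in 3 of the 15 fits that left out 1 array for each gene, and Timp1, an inhibitor of metalloproteinases, was raised at both times (4.24 ± 0.54 and 2.90 ± 0.51, adjusted p of the difference 0.43). Of 16 measured metalloproteinases and inhibitors 3 had a higher effect at 72 h, and 5 did without replicate 1 of isoproterenol at 72 h.

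Of 19 TGF-beta and activin genes, Tgfb3, Fstl1 and Ltbp1 had a higher effect at 72 h and Fstl3 a lower one, with 2 lower without replicate 2 of vehicle at 72 h. The calls of Tgfb3 and Fstl1 were lost in 6 and 3 of the 15 fits that left out 1 array, and Tgfb1 did not pass (0.06, limma adjusted p = 0.968). Of 11 genes listed as modulators of Wnt signalling, Sfrp2, Sfrp4 and Dkk3 had a higher effect, and Sfrp2 lost its call in 10 of those fits. Dkk3 read 8.32, 7.79, 9.09 and 8.46 in isoproterenol at 24 h against 9.43 to 10.21 in vehicle, and 9.81 to 10.29 against 9.49 to 9.94 at 72 h. It fell 2.75-fold at 24 h and had an effect that did not pass at 72 h (difference 1.67 ± 0.30, adjusted p = 0.00251). Of 10 insulin-like growth factor genes, Igf1, Igfbp6 and Igfbp7 had a higher effect at 72 h. The share of all genes with a higher effect was 1.84%. Igfbp7 lost its call in 5 of those fits. Igf1 had effects of 0.32 ± 0.26 and 1.86 ± 0.25 (1.54 ± 0.36, adjusted p = 0.0184), a call lost without replicate 2 of vehicle at 24 h (0.063) or replicate 1 or 3 of vehicle at 72 h (0.0561 and 0.0696).

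Pltp, the phospholipid transfer protein of plasma and macrophages, had the smallest adjusted p of all genes. It read 8.55, 8.42 and 8.16 in vehicle and 7.30, 7.0, 7.62 and 7.30 in isoproterenol at 24 h. Those of 72 h were 8.06, 8.50 and 8.13 against 9.47, 11.26, 11.48, 10.81 and 10.98. Treated arrays lay below every vehicle array and then above every one, a separation that the rule for the largest differences asked for at 72 h. The effects were -1.08 ± 0.27 (limma adjusted p = 0.00725) and 2.57 ± 0.26 (8.59e-07), a difference of 3.65 ± 0.37 (1.38e-06), which passed under every alternative tried. Without normalization the 24 h effect was -0.45 and did not pass.

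Other genes with a large difference were secreted or matrix proteins, or less well known. Clec3b, which encodes the plasminogen-binding protein tetranectin, read 6.32 to 7.13 in isoproterenol at 24 h against 6.84 to 7.57 in vehicle. At 72 h it read 7.52, 9.13, 9.66, 8.93 and 9.31 against 6.07 to 6.72, above every vehicle array of that time, as the rule for the largest differences required (difference 3.07 ± 0.59, limma adjusted p = 0.00465). Igsf10, an immunoglobulin superfamily gene, read 8.26, 10.61, 10.63, 10.07 and 10.10 in isoproterenol at 72 h against 6.30 to 7.96, with an effect of -0.03 ± 0.37 at 24 h (difference 2.95 ± 0.51, adjusted p = 0.00148). Neither call was lost in any alternative in which the gene was tested. C1qtnf3, a secreted relative of C1q, had effects of 0.04 ± 0.41 and 2.89 ± 0.39 (2.85 ± 0.56, adjusted p = 0.00548), with means below an intensity of 23 in the other 3 groups, and lost its call in the fit of the 15 arrays. Aspn, the proteoglycan asporin, had effects of 0.14 ± 0.47 and 2.96 ± 0.45 (2.82 ± 0.65, adjusted p = 0.0166), a call lost in 3 of the 15 fits that left out 1 array.

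Further genes with a lower effect at 72 h were in no list. Ddx3x-ps1, annotated as a pseudogene of the RNA helicase gene Ddx3x, read 7.29 to 7.82 in isoproterenol at 24 h against 6.10 to 6.76 and 6.43 to 7.21 at 72 h against 7.34 to 7.88, above and then below all vehicle arrays (difference -1.95 ± 0.38, limma adjusted p = 0.00449, lost without normalization), and its vehicle arrays were higher at 72 h than at 24 h. Whether its probes also detect Ddx3x was not tested. Raised at 24 h and not past the threshold at 72 h were Kcnn4, a calcium-activated potassium channel (2.12 ± 0.26 and 0.61 ± 0.24), Psca, a surface antigen (1.84 ± 0.29 and 0.34 ± 0.28), Hells, a chromatin remodeller of dividing cells (1.77 ± 0.29 and 0.21 ± 0.27), and the uncharacterised LOC102547700 (1.64 ± 0.28 and 0.02 ± 0.27). Their calls of the difference were lost in 3, 10, 9 and 5 of the 15 fits that left out 1 array. Lower at 72 h only were Tsc22d2, a leucine zipper gene (0.04 ± 0.26 and -1.55 ± 0.25), Sult1a1, a sulfotransferase (0.44 ± 0.32 and -1.36 ± 0.31), and Bik, a promoter of apoptosis (0.71 ± 0.27 and -0.86 ± 0.26), with calls lost in 2, 5 and 3 of those fits. In Tsc22d2 the vehicle arrays moved more between the times than the treated ones, reading 6.33 to 7.36 at 24 h and 7.61 to 8.49 at 72 h, against 6.54 to 7.03 and 6.14 to 6.80 in isoproterenol.

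Of 11 measured complement genes, 1 was higher and 1 lower at 24 h, 8 were higher at 72 h, and 6 had a higher effect at 72 h: C1qa, C1qc, C1r, C1s, Cfd and Serping1, with a median of 1.37 over the list. Over all genes, 13.3% were higher at 72 h and 1.84% had a higher effect than at 24 h. C1r lost its call in 7 of the 15 fits that left out 1 array. C1qa, a chain of the C1q recognition protein made by macrophages, read 8.25, 8.44, 8.37 and 8.21 in isoproterenol at 24 h against 7.84 to 8.59. At 72 h it read 8.85, 10.50, 10.51, 9.85 and 10.40 against 7.40 to 8.12 (difference 2.23 ± 0.37, limma adjusted p = 0.00104). Serping1, the inhibitor of the C1 proteases, read 8.51 to 9.38 against 9.80 to 10.37 at 24 h and 10.65 to 11.06 against 9.54 to 10.04 at 72 h, and its effects of -1.07 ± 0.18 and 1.08 ± 0.17 both passed with opposite signs (2.15 ± 0.25, adjusted p = 1.36e-05). When the arrays were not normalized its 24 h effect was -0.45 and did not pass, nor did its difference (limma adjusted p = 0.0727). Without normalization 1 of the 11 passed, and 5 to 7 did over the fits that left out 1 array.

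Interferon response genes rose at 72 h and not at 24 h. Interferons act through a receptor and the STAT and IRF transcription factors, which bind short repeats of GAAA in the promoters of antiviral genes. Of 21 measured members, none was higher and 1 was lower at 24 h, 19 were higher at 72 h, and 12 had a higher effect at 72 h, with medians of -0.11, 1.61 and 1.40. The 12 were Mx1, Isg15, Irf7, Ifit3, Usp18, Oas1a, Rsad2, Gbp2, Ifit2, Stat2, Irf1 and Ifi27. Promoters of 4 of them are shown, those with the GAAA repeat nearest to the start of the gene among the 9 that have a promoter in the RefSeq table. Of the other 5, Ifi27 carries it 84 bases before the start and once more farther out, Rsad2 carries it beyond the 100 bases shown here, and Mx1, Irf1 and Stat2 hold none in 250 bases. Only the first start listed for each gene was searched, and only for the exact letters given below. The sequences are the 100 bases before the RefSeq start on assembly GRCr8, given on the strand of the gene, at chr1:205800024-205800123 for Irf7 (minus strand), chr1:241527226-241527325 for Ifit3, chr12:41330366-41330465 for Oas1a and chr2:234005627-234005726 for Gbp2 (plus strand). Capitals mark the repeat, GAAA followed by any 2 bases and GAAA, or its reverse complement.
Irf7: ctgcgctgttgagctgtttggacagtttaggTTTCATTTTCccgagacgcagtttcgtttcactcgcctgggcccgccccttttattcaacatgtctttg
Ifit3: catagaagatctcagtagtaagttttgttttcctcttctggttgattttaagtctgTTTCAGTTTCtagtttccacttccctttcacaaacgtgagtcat
Oas1a: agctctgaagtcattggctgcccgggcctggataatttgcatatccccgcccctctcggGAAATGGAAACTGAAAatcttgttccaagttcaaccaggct
Gbp2: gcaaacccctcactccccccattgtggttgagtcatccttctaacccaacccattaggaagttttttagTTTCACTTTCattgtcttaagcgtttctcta

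The repeat lay 69, 44, 41 and 31 bases before the start in Irf7, Ifit3, Oas1a and Gbp2, counted from its 5′ end, and Oas1a held 2 overlapping copies, the nearer at 35. The repeat, searched on both strands of the 250 bases before the start, was found in 902 of 27457 promoters (3.285%), and in 9 of the 16 measured interferon members with a promoter in the RefSeq table, of which 6 are among the 9 past the threshold. Of the 229 genes with a higher effect at 72 h, 175 have a promoter there, and 23 of these held the repeat (13.1%). Of the 109 with a lower effect 86 have one, and 2 of these held it (2.33%). These 175 genes were not chosen by the time at which they passed. These are counts of letters, and no binding was measured.

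Irf7, a transcription factor that amplifies the interferon response, read 7.33 to 7.93 in isoproterenol at 24 h against 8.05 to 8.43, all below vehicle though the effect did not pass, and 9.06, 11.51, 10.86, 10.37 and 11.27 at 72 h against 8.04 to 8.54, all above. Its effects were -0.54 ± 0.38 and 2.29 ± 0.36 (difference 2.83 ± 0.53, limma adjusted p = 0.00334). Mx1, a GTPase that blocks viral replication, read 5.98 to 7.21 against 6.78 to 7.12 at 24 h and 6.97, 11.93, 10.19, 9.46 and 11.06 against 6.53 to 6.87 at 72 h, a rise of 9.09-fold (difference 3.72 ± 0.81, adjusted p = 0.0114). Replicate 2 was the highest and replicate 1 the lowest of the treated arrays of 72 h in both genes. Oas1a, which makes the messenger that activates RNase L, and Gbp2, a guanylate-binding protein, had the same order of arrays, with 6.69, 9.58, 8.27, 7.68 and 8.95 for Oas1a and 8.23, 10.42, 9.21, 8.72 and 9.69 for Gbp2.

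Isg15, a ubiquitin-like protein, and Ifit3, which binds foreign RNA, had differences of 3.04 ± 0.71 (limma adjusted p = 0.0179) and 2.81 ± 0.67 (0.0199). Isg15 lost its call without replicate 2 of vehicle at 24 h (0.057) or replicate 1 of vehicle at 72 h (0.0693), and Ifit3 without those arrays (0.0512 and 0.0538) or replicate 3 of vehicle at 72 h (0.0759). Stat2, Irf1 and Ifi27 lost their calls in 10, 7 and 9 of the 15 fits that left out 1 array, and Mx1 did in the fit of the 15 arrays (0.084). Over the list, 6 to 16 members passed in the 15 fits that left out 1 array, 16 of them without replicate 1 of isoproterenol at 72 h, with 7 without normalization and 2 in the fit of the 15 arrays. Ifi27l2b, a relative of Ifi27 that was in no list, read 7.81 to 8.81 in isoproterenol at 24 h and 9.65, 11.79, 11.38, 10.63 and 11.45 at 72 h, against 7.80 to 8.68 and 8.02 to 8.21 in vehicle (difference 2.64 ± 0.52, limma adjusted p = 0.00548). Ddx60 and Slfn4, interferon-induced genes that were in no list, had differences of 3.00 ± 0.62 (adjusted p = 0.00814) and 2.73 ± 0.72 (0.0388, lost in 11 of the 15 fits that left out 1 array). The summed intensity of 8 lymphocyte markers was 266.5 to 436 in isoproterenol at 72 h, against 232.7 to 275.5 in vehicle. Its part in the interferon values was not tested.

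**Figure D3:**
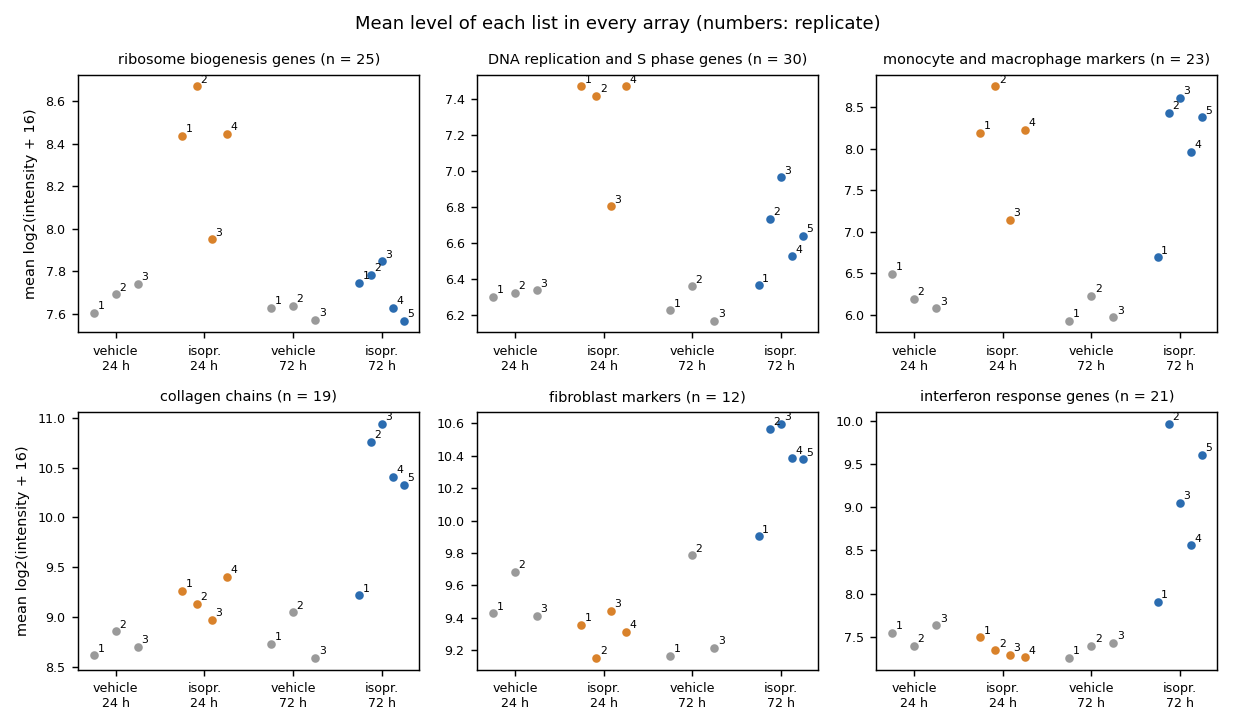
Mean level of 6 gene lists on each of the 15 arrays, in log2(intensity + 16) after normalization (vertical axes), by group (horizontal axes), each point labelled with its replicate number. Ribosome biogenesis and S phase genes are highest in isoproterenol at 24 h, macrophage markers are high at both times, and collagen, fibroblast and interferon genes are highest at 72 h, where replicate 1 is the lowest treated array in these 3 lists.

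Many genes of energy metabolism were lower than vehicle, beside 7.19% of all genes at 24 h and 8.71% at 72 h. Of 29 measured fatty acid oxidation genes, 12 were lower at 24 h and 25 at 72 h, with medians of -0.49 and -0.71. Of 32 oxidative phosphorylation genes 7 and 20 were, with medians of -0.20 and -0.38. Of 28 genes of the citric acid cycle and branched-chain amino acids 15 and 17 were. In the fit of the 15 arrays alone these counts at 24 h and 72 h fell to 3 and 13, 0 and 5, and 5 and 8 for the 3 lists. By limma 1 of these genes had a difference that passed, with 2 of the oxidative phosphorylation and 0 of the citric acid cycle genes at an unadjusted p below 0.05. That gene was Pdk4, the kinase that restrains pyruvate oxidation, which read 10.21 to 11.31 in isoproterenol at 24 h against 9.24 to 10.40. Its values at 72 h were 10.10, 8.87, 8.30, 10.27 and 9.63 against 10.12 to 10.79, and the groups overlapped at both times. Its effects were 0.87 ± 0.30 and -1.06 ± 0.29 (difference -1.93 ± 0.42, limma adjusted p = 0.0114), and its call was lost without replicate 3 of vehicle at 24 h (0.0542) or replicate 1 of vehicle at 72 h (0.054).

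The metabolic falls depended on the scaling too. Without normalization, where all probe sets had median effects of 0.468 and 0.356, no fatty acid oxidation or oxidative phosphorylation gene was lower by limma at either time. The medians at 24 h and 72 h were then -0.01 and -0.26 for the first list and 0.21 and -0.12 for the other, below those of all probe sets. Over the whole array, 19 of the 34 genes called lower at 72 h with a lower effect kept that sign without normalization and none passed.

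In several lists no difference passed by limma with all 15 arrays. Unadjusted p-values below 0.05 were found for 2 of 12 endothelial, 2 of 11 mural, 4 of 27 immediate early, 3 of 27 calcium handling and ion channel, 4 of 23 beta-adrenergic signalling, 3 of 24 endoplasmic reticulum and 4 of 17 p53 and apoptosis genes. The share of all genes below that unadjusted level was not counted, so neither these counts nor those given above can be set against it. Without replicate 2 of vehicle at 72 h, 2 endothelial genes had a higher and 1 a lower effect at 72 h, and 1 immediate early and 1 p53 gene a higher one. Without replicate 3 of isoproterenol at 24 h, 3 endoplasmic reticulum, 2 immediate early and 1 p53 gene had a lower effect, and 1 beta-adrenergic and 1 p53 gene a higher one. Without replicate 1 of isoproterenol at 72 h, 1 immediate early gene had a higher effect. Of the endoplasmic reticulum genes, which fold secreted proteins, 14 were higher at 24 h and 6 at 72 h. Of the calcium and ion channel genes, 11 were lower at 24 h and 10 at 72 h. Kcnd2, a subunit of the transient outward potassium channel, was lower at both times, with effects of -0.77 ± 0.23 and -0.75 ± 0.22 (difference 0.02 ± 0.32).

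Several genes known as landmarks of cardiac injury and stress had no difference past the threshold. Ccn2, a matrix growth factor, and Fn1, fibronectin, were raised at both times, with effects of 2.01 ± 0.34 and 2.36 ± 0.36 at 24 h and of 2.37 ± 0.32 and 2.93 ± 0.34 at 72 h. Lox, a collagen crosslinker, had effects of 1.33 ± 0.48 and 3.11 ± 0.46, of which the later passed (adjusted p of the difference 0.175). Nppb, the B-type natriuretic peptide, had 0.75 ± 0.24 and 0.42 ± 0.23, of which the earlier passed, and Il1b, an inflammatory cytokine, was raised at both times (1.56 ± 0.30 and 0.95 ± 0.29). Apln, the peptide apelin, was lower at both times, with effects of -1.91 ± 0.27 and -1.46 ± 0.26. Top2a, a topoisomerase of dividing cells, and the helicase subunit Mcm6 were raised at both times, with differences of 0.18 ± 0.34 and -0.83 ± 0.34. Adrb1, the main cardiac beta-adrenergic receptor, passed at neither time (-0.22 ± 0.23 and -0.40 ± 0.22).

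**Figure D4:**
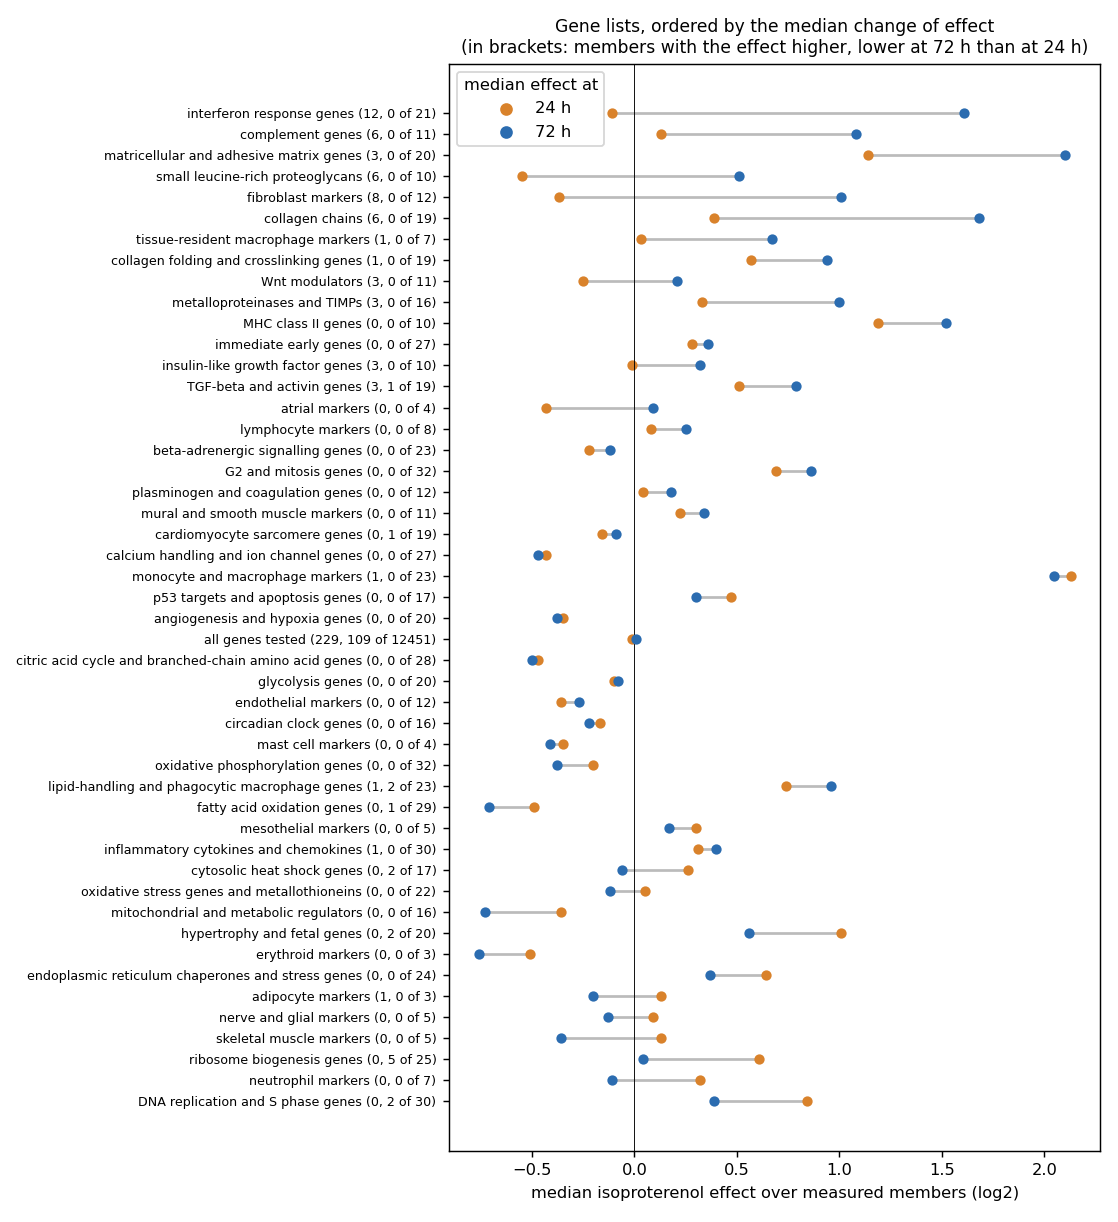
Median isoproterenol effect at 24 h (orange) and 72 h (blue) over the measured members of each gene list, in log2(intensity + 16) (horizontal axis), ordered by the median difference. Brackets give the members whose effect was higher and lower at 72 h, of those measured. Interferon and complement genes stand at the top, and S phase and neutrophil genes at the bottom, against 0.01 over all 12451 genes.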

How the data were processed

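The deposited series matrix table holds intensity values on a linear scale, 1 per probe set and array of the Affymetrix RAT230_2 design, per the labels; the authors' summarisation and scaling method is not stated in labels or header. The intensity values reach 15512, and array medians over the 30 arrays differed by up to 3.32-fold. Values were taken as log2(intensity + 16) and quantile normalized. After 57 of 31099 probe sets (controls) were left out, those with a deposited intensity of at least 23, the 40th percentile, in 3 or more arrays were kept, which left 24292. limma 3.58.1 in R 4.3.3 fitted 8 group means to the 30 arrays with eBayes and a trend on intensity, leaving 22 degrees of freedom; tests were two-sided. The platform annotation, updated through RefSeq, gave 1 gene for 20826 probe sets, several for 436 and none for 9780. On simulated data with 50 changed probe sets a size, the test of the difference recovered 22%, 60%, 90% and 100% of changes of 1, 1.5, 2 and 3 log2 units, and called 8 unchanged ones. The simulated noise was normal and independent between probe sets and arrays. It held no deviation shared across an array, so these figures may be too favourable for the real arrays.

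Genes were drawn by rule from the 15 genes with the largest difference past the threshold in each direction whose treated and vehicle arrays did not overlap at the time of the larger effect, up to 4 members of each list (the brightest where none passed), landmark genes, and the 5 largest of opposite sign at the 2 times. Not every gene so drawn is described; the 25 that were brightest in a list without a passed difference had differences of -0.78 (Lcn2) to 0.97 (F2r). The comparison, gene lists and rule were chosen with earlier results of these data known. Alternatives were the pseudocount, the filter on low values (on normalized values too, added after the data were seen), the scaling, the variance model, the arrays fitted, the replicate number as a block and leaving out each array. Arrays of both treatments share the model's spread, and precision is limited by 3 to 5 arrays a group.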

Additional observations from a re-analysis of the deposited data

Results flagged for a closer look

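The effect of isoproterenol differed between 72 h and 24 h, by the test of the difference itself, for 321 probe sets in the higher and 193 in the lower direction. The 5 genes with the largest difference among those that passed the limma test at both times with opposite signs had differences of effects of 3.65 for Pltp, 2.67 for Usp18, 2.64 for Ecm2, 2.17 for Dact2 and 2.15 for Serping1. Without normalization none of the 5 passed at 24 h, with effects of -0.45, -0.36, -0.92, -0.77 and -0.45 in that order. The 24 h effect of Usp18 (limma adjusted p = 0.0493) also failed with arrays centred on their medians (0.0538) and with trimmed mean scaling (0.0628). Usp18 removes the ubiquitin-like protein Isg15, Ecm2 is a matrix protein and Dact2 acts on Wnt and TGF-beta signals.

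An isoproterenol array lay far from the rest of its group in 22 of 156 groups of 4 or 5 values tested. Chance gives about 1 in 20 for independent groups, and these are not independent: they are values of the same 9 arrays over genes chosen for their differences, and 1 array gives 14 of the 22. The gap to the nearest array, as a share of the group's range, is given for each. At 72 h, 14 of these were replicate 1: Aspn 0.914, Ccl6 0.90, Cthrc1 0.865, Col3a1 0.853, Fndc1 0.809, Mfap4 0.791, Igf1 0.779, Igsf10 0.763, Loxl1 0.756, Spp1 0.744, Abca1 0.734, Mcm5 0.727, Bgn 0.725 and Col16a1 0.723. In all of them it was the lowest treated array. At the same time Dkk3 (0.86) had replicate 4 apart, and Flnc (0.757) and Dact2 (0.758) replicate 2.

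At 24 h, replicate 3 lay apart for Cdt1 and Flnc (0.912 each), Sult1a1 (0.875) and Pno1 (0.85), and replicate 2 for Col16a1 (0.878). Over the 175 genes that passed at 72 h only with a higher effect, replicate 1 of isoproterenol at 72 h lay a median of 0.64 above the vehicle mean, against 1.32 to 1.68 in the other 4. Over the 69 genes raised at 24 h only, replicate 3 of isoproterenol at 24 h lay 0.58 above it, against 1.02 to 1.37.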

How the results depend on the processing

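The 338 genes kept the direction of their difference under every alternative in which they were tested (330 of them with the stricter filter on low values). Counts of probe sets passing the test of the difference, 321 higher and 193 lower, became 48 and 6 without normalization, 90 and 39 with the 15 arrays alone and 1037 and 942 with array weights. The lower count was 68 with arrays centred on their medians (279 higher) and 123 with no intensity trend. Leaving out each array in turn gave 128 to 614 higher and 55 to 496 lower. At 24 h, 3169 probe sets passed, 2086 with the 15 arrays alone, 5249 with array weights and 1584 to 4415 with 1 array left out. At 72 h, 4333 passed, 2380 without normalization, 7200 with array weights and 2418 to 5648 with 1 array left out. Without normalization the median of all probe sets was 0.468 at 24 h and 0.356 at 72 h. The causes were not tested, save that the smaller fits hold fewer arrays. Dim probe sets limit the size of changes.

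Over 19 pairs of arrays of the same replicate number, the mean correlation of their deviations was -0.00221 (-0.433 to 0.18), with 5 above 0.1. Over 64 pairs of different number it was 0.00118 (-0.337 to 0.4), with 8 above 0.1. A mean near 0 can hide pairs that vary together, and single pairs were not tested. With the replicate number as a block, 242 probe sets were higher and 123 lower.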
